A study of Homo sapiens with 18 samples.

Results

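The genes described here were the Toll-like receptors TLR2, TLR3 and TLR4, the adaptors MYD88 and TIRAP, the kinases IRAK1, IRAK2, IRAK3 and IRAK4, and the ubiquitin ligase TRAF6. They were chosen by name, 10 of 30484 gene names on the array. Their probes were every non-control probe whose gene name in the scanner files was 1 of these 10 symbols, or 15 probes of 41000. Of these, 10 probes from 7 genes passed the filter on dim spots, out of 28665 probes that passed it on the whole array. IRAK3, TLR3 and TLR4 had no probe that passed.

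The samples were cultures of A549, an established human lung adenocarcinoma line with features of alveolar epithelium, exposed to Ludox amorphous silica nanoparticles (NPs) and hybridised to Agilent one-color arrays. SM30 NPs had a diameter of 9 nm and AS30 NPs a diameter of 18 nm. The 6 groups of 3 arrays were cells treated with SM30 and recovered for 3 h, cells treated with AS30 and recovered for 3 h or for 22 h, and a control group of untreated cells for each. All groups, controls included, spent 2 h in medium without serum before recovery in complete medium, and treated cells received 0.02 mg/mL NPs during those 2 h. The letters A, B and C named 3 biological replicates in every group, and all came from 1 cell line. The comparison of treated with control cells asked which members changed after each exposure, and the comparison of responses asked whether SM30 and AS30, or the 3 h and 22 h recovery times, differed.

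Toll-like receptors bind microbial molecules and products of damaged cells, TLR2 and TLR4 at the cell surface and TLR3 in endosomes. TIRAP brings MyD88 to TLR2 and TLR4, MyD88 gathers IRAK4 with IRAK1 or IRAK2 in a signalling complex, and TRAF6 passes the signal to kinases that activate NF-kB and AP-1. IRAK3, also called IRAK-M, restrains this route, and TLR3 signals through the adaptor TRIF instead of MyD88.

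IRAK2 and TLR2 were the members whose probes passed the test after an exposure, so the bases before their annotated starts are shown. They come from RefSeq promoter windows on GRCh38.p14, which matched 9 of the 10 members, and each runs over the 250 bases before the start, 5′ to 3′ on the strand of the gene. Capitals mark matches to the NF-kB motif, a consensus of 10 bases searched on both strands.
IRAK2, plus strand, chr3:10164669-10164918: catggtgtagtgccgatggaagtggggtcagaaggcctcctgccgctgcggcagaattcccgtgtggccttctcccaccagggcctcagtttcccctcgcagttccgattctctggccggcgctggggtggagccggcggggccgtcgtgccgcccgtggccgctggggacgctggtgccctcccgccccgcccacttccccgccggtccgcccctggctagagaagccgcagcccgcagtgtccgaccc
TLR2, plus strand, chr4:153684030-153684279: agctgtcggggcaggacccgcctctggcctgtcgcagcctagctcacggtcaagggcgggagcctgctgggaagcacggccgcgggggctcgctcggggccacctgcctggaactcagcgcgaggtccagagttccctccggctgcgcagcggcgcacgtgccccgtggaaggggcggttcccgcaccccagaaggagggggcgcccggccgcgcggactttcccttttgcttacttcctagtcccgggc

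Neither window held a match, so both appear without capitals. The IRAK2 window had 72.0% G and C with 24 CpG dinucleotides, and the TLR2 window had 72.4% with 26, beside a median of 58% and 11 over all windows. Of the 9 members with a window, 1 held the motif, beside 9.96% of all 35116 windows. That member was IRAK1, with a palindromic match. TNFAIP3, which encodes the ubiquitin-editing inhibitor A20, and CCL20, a chemokine, are target genes of the same route that rose after SM30, and stretches around their matches are shown for comparison. ICAM1, PTGS2 and JUN, which also rose after SM30, had 0 matches in their windows. TNF, whose 2 probes disagreed on a rise, had 0 as well. CXCL2, NFKB1 and TNIP1 rose too and held a match in a window.
IRAK1, minus strand, chrX:154019987-154020036: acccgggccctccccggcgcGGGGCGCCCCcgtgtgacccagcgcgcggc
TNFAIP3, plus strand, chr6:137867172-137867233: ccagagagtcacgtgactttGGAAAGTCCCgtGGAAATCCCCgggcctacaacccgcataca
CCL20, plus strand, chr2:227813743-227813792: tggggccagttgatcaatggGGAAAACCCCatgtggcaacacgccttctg

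The match in IRAK1 began 114 bases before the start, those in TNFAIP3 at 67 and 55 bases, and that in CCL20 at 79 bases. A match describes letters only and is no evidence of binding.

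The identity of the cells was checked on the same arrays. KRT8, KRT18, KRT19, EPCAM and CDH1, markers of epithelium, were well above background on all 18 arrays. Well above background here means that the scanner software set this flag for at least 1 in 2 of the probe's spots. PTPRC, the antigen shared by leukocytes, was well above background on 0 arrays. Of 4 endothelial markers, PECAM1 was well above background on 0 arrays, CDH5 on 1, KDR on 2 and VWF on 6. Of 6 myeloid markers, CD68 and CD14 were well above background on all 18 arrays, ITGAM on 16, CSF1R on 9 and LYZ on 6. The share of spots well above background ran from 51.9% to 72.4%, was lowest in controls of the AS30 set, and no spot was saturated. The arrays lay on 5 slides. In bulk RNA of this kind, fewer cells of a type and less RNA per cell cannot be told apart.

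Detection divided the members into 3 classes. IRAK1, both MYD88 probes and TRAF6 were well above background on 18 of 18 arrays. IRAK4 was detected on 16 and 13 arrays by its 2 probes, TIRAP on 15 and 16, and IRAK2 on 12. TLR2 was detected on 4 arrays, TLR3 on 5 and TLR4 on 7 by 1 of its 3 probes, whereas IRAK3 was not detected on any array.

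**Figure D1:**
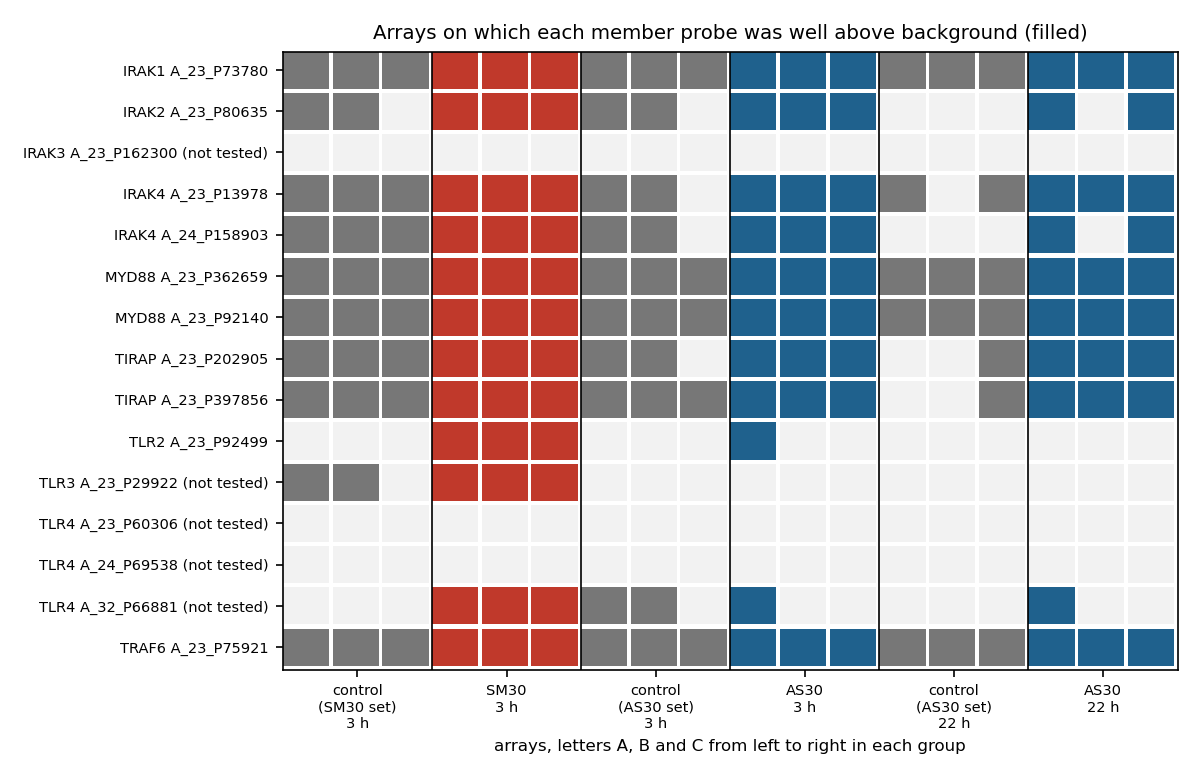
Each row is 1 of the 15 member probes and each column 1 of the 18 arrays, with control arrays in grey, SM30 in red and AS30 in blue where the probe was well above background, and pale cells where it was not. TLR2 was detected on all 3 SM30 arrays and 1 AS30 array and on no control array, and IRAK3 on none.

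IRAK2, a kinase of the MyD88 complex, rose after SM30 and after AS30 at 3 h, and TLR2, the receptor for bacterial lipopeptides, rose after SM30. After SM30, 2 of the 10 tested member probes passed limma's test at an adjusted p of 0.05, both higher, whereas 7.49% of all tested probes passed and 4.35% were higher. After AS30 at 3 h, 1 of 10 passed, higher, beside 2.52% of all probes and 1.5% higher. After AS30 at 22 h, 1 of 10 passed, again IRAK2 and higher, beside 3.58% of all probes and 2.54% higher. The median change of the 10 member probes was 0.13 on the log2 scale after SM30, 0.26 after AS30 at 3 h and 0.28 after AS30 at 22 h, and the median over all tested probes was -0.05, 0.01 and -0.0047. At an unadjusted p under 0.05, the counts were 3, 1 and 3 of 10, beside 7207 of 28664, 6964 of 28596 and 6452 of 28155 of all probes.

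IRAK2 was measured by 1 probe (A_23_P80635), listed on hg18 chr3:10236456-10239361, a stretch of 2906 bases that is longer than the 60 bases of most member probes. Its log2 signal was 6.29, 6.42 and 6.21 in SM30 cells for letters A, B and C, and 4.19, 4.60 and 4.42 without NPs. The groups did not overlap, and the controls were well above background on 2 of 3 arrays. The change was 1.90 on the log2 scale, a 3.74-fold rise (SE 0.16, 95% interval 1.52 to 2.28, limma adjusted p = 0.0028, n = 3 ratios), with same-letter ratios of 2.10, 1.83 and 1.79. Within the slide that held SM30 A and the 3 controls, the difference was 1.89. With normexp background correction, with an offset of 50, the change was 0.33 (limma adjusted p = 0.017), and with slide as a fixed block it was 1.89 with an adjusted p of 0.16.

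In the AS30 set at 3 h, the IRAK2 signal was 6.78, 6.86 and 6.79 in treated cells and 5.77, 5.45 and 5.12 in controls (log2). All treated arrays lay above all control arrays. The change was 1.36 (SE 0.16, 95% interval 0.98 to 1.74, limma adjusted p = 0.018, n = 3 ratios), with ratios of 1.01, 1.41 and 1.66. Treated and control arrays of this comparison lay on separate slides, and slide as a fixed block could not be fitted for this probe. With slide as a random block the change was 1.36 (limma adjusted p = 0.026). The estimated correlation between arrays of a slide was negative, -0.08, so this setting could not take out a difference between the slides. Over all probes it called 3931, against 720 in the main fit. The call was lost without letter B (limma adjusted p = 0.096), without the pairing by letter (adjusted p = 0.071) and with dim spots kept (adjusted p = 0.054), and the change was 0.30 with normexp. The control arrays were also those with fewer spots well above background, 52.4% to 61.9% against 62.5% to 67.1% in AS30 cells, and the part of this in the result was not tested.

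At 22 h, IRAK2 was 5.28, 4.10 and 6.35 in AS30 cells and 2.64, 2.59 and 3.79 in controls (log2). No control array was well above background, 2 of 3 treated arrays were, and the 3 treated arrays differed widely. The share of spots well above background was 51.9% to 58.4% on the controls and 56.9% to 67.0% on the AS30 arrays, and its part in the result was not tested. The limma adjusted p of 0.018 rested on 1 ratio, that of letter C, because the controls of A and B were masked as dim, and no fold is given since the treated mean did not exceed the lowest detectable signal of the control arrays. The call was lost without the pairing by letter, and without letter C no ratio was left. It was also lost without letter A, which had no tested ratio, so the estimate itself did not change.

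TLR2 was measured by 1 probe (A_23_P92499) spotted 10 times, on hg18 chr4:154845856-154845915. Its log2 signal, dim spots included, was 4.90, 5.28 and 5.09 in SM30 cells and 3.15, 3.37 and 3.42 in their controls. All 3 SM30 arrays were well above background and no control array was, so the size of the measured difference is a bound. The mean of the SM30 arrays was at least 1.93-fold that of the controls, taking the lowest signal detected on each control array. This bound leaves out the spread of the arrays. The fit left out dim spots, which put the controls at 3.22, 3.37 and 3.89. The fitted change was 1.60 (SE 0.28, 95% interval 0.90 to 2.29, limma adjusted p = 0.033, n = 3 ratios). The call was lost without any 1 of the 3 letters, with adjusted p from 0.12 to 0.17, and with slide as a fixed block (1.41, adjusted p = 0.24), and normexp gave 0.16 (adjusted p = 0.19).

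In AS30 cells at 3 h, TLR2 was 5.08, 3.14 and 3.14, and in their controls 3.89, 3.69 and 3.13 (log2, dim spots included). The array of letter A stood apart and was the only AS30 array well above background. At 22 h, no array of either group showed TLR2 well above background, with signals from 2.72 to 3.59 in AS30 cells and 3.04 to 3.18 in controls. TLR2 passed the test in neither AS30 comparison (limma adjusted p = 0.49 on 2 ratios and 0.51 on 1 ratio).

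Among markers of other cell types, the myeloid sum was higher on treated than on control arrays in all 3 comparisons. The fibroblast sum was higher without overlap only in the SM30 set. The summed intensity of the 6 myeloid markers was 1292 to 1367 on SM30 arrays against 828 to 863 on their controls. It was 1596 to 1833 against 1017 to 1225 in the AS30 set at 3 h, and 1598 to 3732 against 1024 to 1236 at 22 h. CD14, also a co-receptor of TLR4, did not pass the test in any of the 3 comparisons, with log2 values of -0.24, 0.62 and -0.02. PTPRC, the antigen shared by leukocytes, was well above background on 0 of 18 arrays. The changes of CD68, ITGAM, CSF1R and LYZ are not given here, so the markers that carried the higher sums are not named. Of 4 fibroblast markers, COL1A1 was well above background on 18 arrays, DCN on 1, and COL1A2 and PDGFRB on none. Their summed intensity was 202 to 238 on SM30 arrays against 141 to 185 on controls, 169 to 332 against 137 to 176 in the AS30 set at 3 h, and 80.9 to 151 against 124 to 224 at 22 h. That of the endothelial markers overlapped between treated and control arrays in all 3 comparisons, from 35.9 to 44.7 against 33.4 to 51.2 in the SM30 set. The part of these markers in the results was not tested.

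**Figure D2:**
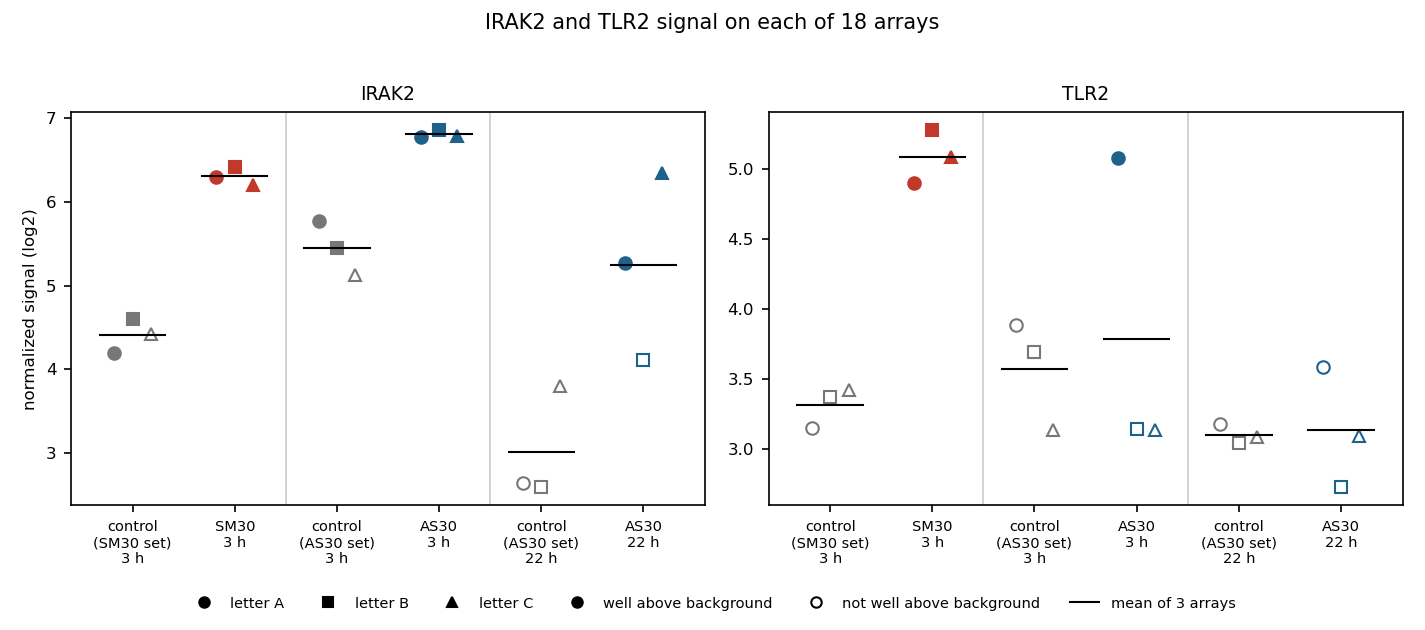
Normalized log2 signal of IRAK2 and TLR2 (vertical axes) on each array, by group, with filled symbols where the probe was well above background, open symbols where it was not, and a bar at the mean of 3 arrays. IRAK2 lay higher in every treated group than in its own controls, from 6.21 to 6.42 after SM30 against 4.19 to 4.60, and TLR2 stood apart in the SM30 group and on 1 AS30 array.

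The other receptors were close to the detection limit. TLR3, the receptor for double-stranded RNA (A_23_P29922, hg18 chr4:187242884-187242943), was 3.95, 4.36 and 4.08 in SM30 cells and 4.35, 4.85 and 2.61 in their controls (log2). Of these arrays all but control C were well above background, and the groups overlapped. In the 12 arrays of the AS30 set, TLR3 lay between 2.56 and 4.70 and was not well above background on any. TLR3 failed the filter on dim spots. Without that filter it did not pass after SM30, with a change of -0.44 from letters A and B (limma adjusted p = 0.27). With dim spots kept, letter C included, the SM30 change had the opposite sign, 0.20, and did not pass. After AS30 at 3 h only the ratio of letter A was left, -0.79, and it did not pass.

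TLR4, the receptor for lipopolysaccharide, was measured by 3 probes that disagreed in detection. A_32_P66881 (hg18 chr9:119519057-119519116) was 4.42, 4.15 and 5.95 in SM30 cells and 3.99, 3.97 and 4.42 in their controls (log2). All 3 SM30 arrays but no control array were well above background, although the signals overlapped. The bound on the ratio of the group means was 1.59-fold, which leaves out the spread of the arrays. The probe failed the filter on dim spots, and without that filter it did not pass (limma adjusted p = 0.25, and 0.82 with dim spots kept). In the AS30 set this probe was well above background on 2 control arrays at 3 h and on 1 AS30 array at each time. A_23_P60306 (hg18 chr9:119517772-119517831) and A_24_P69538 (hg18 chr9:119516677-119516736) were well above background on 0 of 18 arrays.

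MYD88, the adaptor shared by most Toll-like receptors and the interleukin-1 receptors, did not pass the test after any exposure. Its first probe (A_23_P362659, hg18 chr3:38158936-38158995) was 9.84, 9.98 and 9.69 in SM30 cells and 9.54, 9.61 and 9.56 in controls (log2). It was 10.65, 10.44 and 10.37 in AS30 cells at 3 h and 10.43, 9.98 and 10.30 in controls. At 22 h it was 10.75, 10.23 and 10.57 in AS30 cells and 10.12, 10.04 and 10.25 in controls. The treated arrays lay above all controls only in the SM30 set, and every same-letter ratio was above 0. The changes were 0.27, 0.25 and 0.38, with limma adjusted p of 0.24, 0.26 and 0.13.

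The other MYD88 probe (A_23_P92140, hg18 chr3:38157022-38157269) gave changes of 0.02, 0.02 and 0.26 for the same comparisons, none of which passed. Its log2 signal was 7.08, 6.87 and 6.33 in SM30 cells, with controls at 6.52, 6.89 and 6.82. In the AS30 set the 12 arrays lay between 7.22 and 7.97. Groups overlapped in all 3 comparisons.

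TIRAP, the adaptor that links MyD88 to TLR2 and TLR4, did not pass the test after any exposure with either probe. The probe A_23_P202905 (hg18 chr11:125668141-125668200) was 5.90, 6.15 and 6.03 in SM30 cells and 6.28, 6.15 and 5.95 in controls, and it changed by -0.10 (log2). In the AS30 set at 3 h it was 5.92, 6.13 and 6.07 in treated cells and 5.81, 5.62 and 5.81 in controls, a difference of 0.29 (limma adjusted p = 0.27). The treated arrays lay above the controls at 3 h but not at 22 h, when the difference was 0.10.

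The second TIRAP probe (A_23_P397856, hg18 chr11:125669200-125669259) did not pass either. Its difference was -0.09 after SM30, 0.10 after AS30 at 3 h and 0.37 at 22 h (limma adjusted p = 0.70, 0.65 and 0.13). At 22 h its log2 signal was 6.56, 6.58 and 6.80 in AS30 cells and 6.10, 6.50 and 6.22 in controls. These groups did not overlap, but only 1 of the 3 controls was well above background.

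IRAK4, the first kinase of the complex, was measured by 2 neighbouring probes, A_23_P13978 (hg18 chr12:42467441-42467500) and A_24_P158903 (hg18 chr12:42467339-42467398). After SM30 the former was 6.95, 6.88 and 6.94 against 6.96, 6.58 and 6.51 in controls, and the latter 5.97, 6.06 and 6.20 against 6.06, 6.14 and 5.97 (log2). The groups overlapped for both. In the AS30 set at 3 h, control C was the low array for both probes, at 5.44 against 6.89 and 7.06 in controls A and B for the former and 3.68 against 5.25 and 5.82 for the latter. The 2 probes then gave differences of opposite sign, -0.40 and 0.38, neither of which passed (limma adjusted p = 0.42 and 0.58). At 22 h the differences were 0.38 and 0.30, and neither passed.

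IRAK1, the kinase released from the complex to TRAF6 (A_23_P73780, hg18 chrX:152930035-152930094), did not pass the test after any exposure. Its log2 signal was 12.50, 12.77 and 12.54 in SM30 cells and 12.48, 12.61 and 12.64 in controls. In the AS30 set it was 13.15, 13.33 and 13.48 against 12.88, 12.87 and 13.41 at 3 h, and 13.53, 13.63 and 13.38 against 13.21, 13.49 and 13.41 at 22 h. Groups overlapped in all 3 comparisons. The changes were 0.03 (95% interval -0.26 to 0.31), 0.27 (-0.01 to 0.55) and 0.14 (-0.14 to 0.42), with limma adjusted p of 0.92, 0.22 and 0.53.

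IRAK3 (A_23_P162300, hg18 chr12:64928427-64928486) had signals of 2.50 to 3.38 (log2) and was well above background on 0 of 18 arrays. No value is given for its change.

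TRAF6, the ubiquitin ligase downstream of the IRAK kinases (A_23_P75921, hg18 chr11:36467757-36467816), was 9.10, 9.33 and 9.30 in SM30 cells and 8.80, 8.84 and 8.99 in controls (log2). These groups did not overlap, yet the change of 0.37 (SE 0.11, 95% interval 0.11 to 0.63) had a limma adjusted p of 0.091 over all probes. At 3 h after AS30 it was 8.87, 9.04 and 8.81 against 8.73, 8.80 and 8.41, a difference of 0.26 (adjusted p = 0.21). Here too TRAF6 lay higher on every treated array than on any control, narrowly, at 8.81 against 8.80. At 22 h it was 8.37, 8.39 and 8.42 against 8.45, 8.14 and 8.47, and the groups overlapped. With normexp the SM30 change was 0.31 and passed (limma adjusted p = 0.046).

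**Figure D3:**
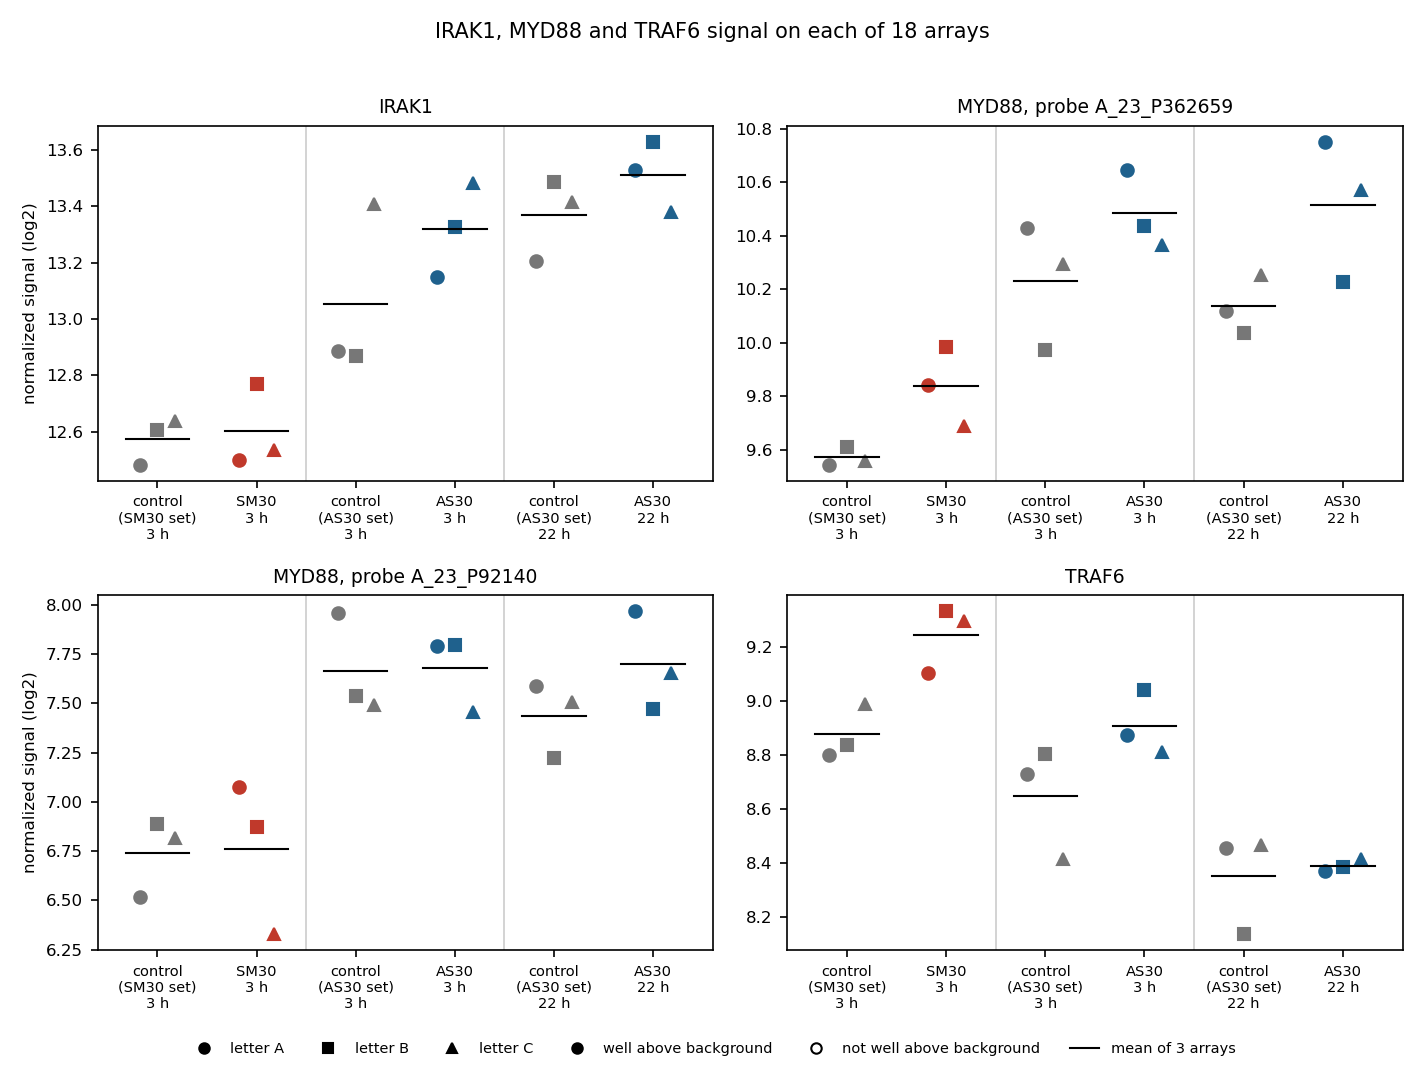
Normalized log2 signal (vertical axes) of IRAK1, the 2 MYD88 probes and TRAF6 on each array, by group, with a bar at the mean of 3 arrays. All were well above background on all 18 arrays, and TRAF6 lay from 9.10 to 9.33 on SM30 arrays against 8.80 to 8.99 on their controls. On AS30 arrays at 3 h TRAF6 lay from 8.81 to 9.04 against 8.41 to 8.80.

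**Figure D4:**
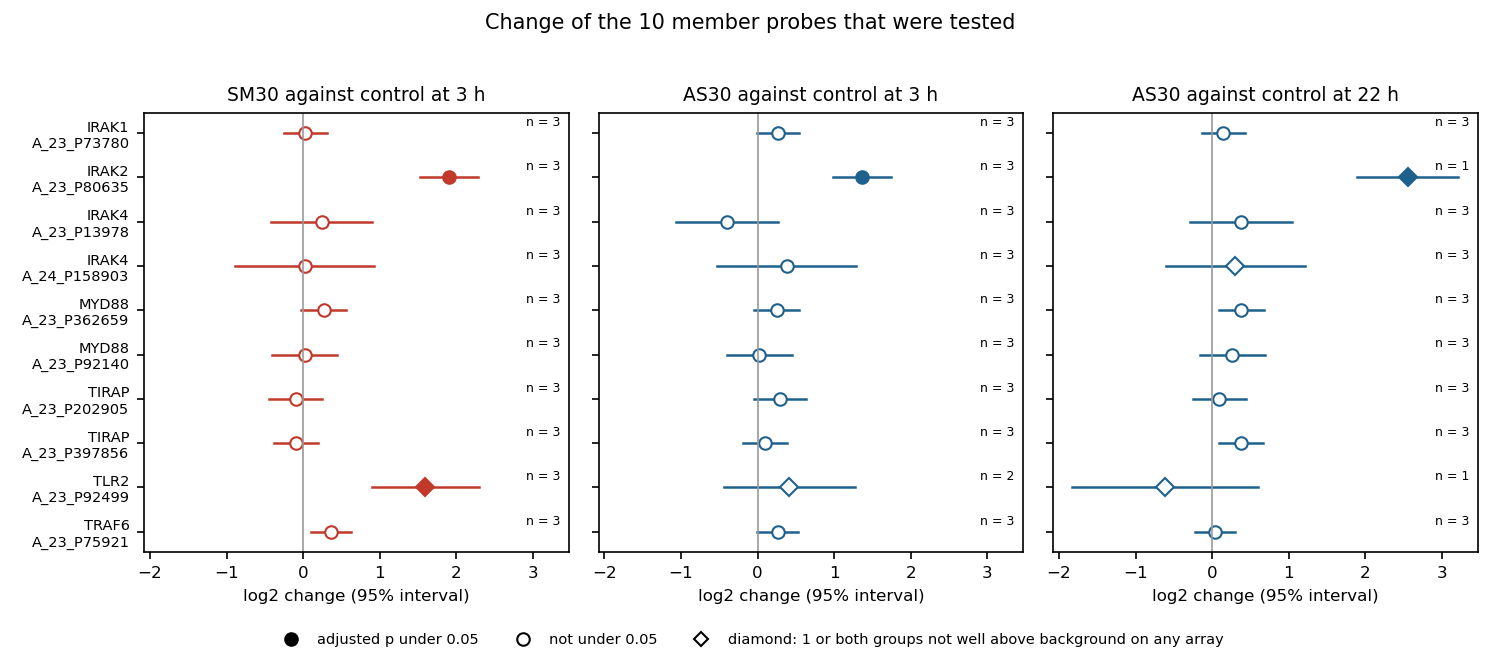
Log2 change with its 95% interval (horizontal axes) for the 10 tested member probes after each exposure, with n the number of same-letter ratios. Filled symbols had a limma adjusted p under 0.05 and diamonds mark comparisons in which no array of a group was well above background. IRAK2 lay farthest to the right after SM30 and after AS30 at 3 h, and at 22 h its value rests on n = 1 ratio with dim controls.

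The responses were then compared with each other. SM30 and AS30 at 3 h had separate controls, and no member probe passed the test of the difference between their responses, beside 0.014% of all probes. The IRAK2 response was 0.54 larger after SM30 (SE 0.22, 95% interval 0.01 to 1.08, limma adjusted p = 0.34), and the TLR2 response 1.18 larger (95% interval 0.08 to 2.29, adjusted p = 0.32, n = 5 ratios). These were the 2 of 10 member probes with an unadjusted p under 0.05, beside 4176 of 28595 of all probes. The intervals were wide, so the 2 particles are not shown to act alike on IRAK2 or TLR2, nor to differ. For MYD88 the difference was 0.02 with an interval of -0.40 to 0.43 by the probe A_23_P362659, and for TRAF6 it was 0.11 with an interval of -0.26 to 0.48.

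For AS30, no member passed the test of the response at 22 h against that at 3 h, beside 0.0285% of all probes. IRAK2 had a limma adjusted p of 0.17 on 4 ratios, 1 of them at 22 h, and no size is given because of the dim controls described above. At an unadjusted p under 0.05 this was 1 of 10, beside 4735 of 28086 of all probes.

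Control cells also differed. Between the AS30 controls at 22 h and at 3 h, no member probe passed the 18-array limma fit, beside 1.3% of all probes, and 4 of 10 had an unadjusted p under 0.05, beside 4210 of 28179 of all probes. IRAK2, lower at 22 h, had a limma adjusted p of 0.19, and it passed with dim spots kept (adjusted p = 0.022). No size is given, since it was well above background on 0 of 3 controls at 22 h.

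The SM30 controls and the AS30 controls at 3 h, both untreated cells with the same schedule, differed in 4 of 10 member probes, beside 26.8% of all probes. IRAK1 was lower in the SM30 controls by a log2 difference of -0.48 (limma adjusted p = 0.031), and MYD88 by -0.66 and -0.92 with its 2 probes (adjusted p = 0.0057 and 0.0052). The TIRAP probe A_23_P202905 was higher, by 0.38 (adjusted p = 0.045). The TIRAP call was lost under 10 of 17 alternatives, among them 75th-percentile scaling (0.16, limma adjusted p = 0.39), and the IRAK1 call under 6 of 18, that scaling included (-0.41, adjusted p = 0.10). IRAK2 was at -1.04 and did not pass (adjusted p = 0.070). The 2 control sets lay on different slides, so slide and set cannot be told apart, and levels of SM30 and AS30 cells were compared only through their own controls.

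The other genes of the pathway were followed with a list of 79, of which 64 had a tested probe, 1 a gene. The list was chosen with earlier results of these data known, so its shares are a description and no test of the pathway. After SM30, 11 of 64 rose and 0 fell, 17.2% beside 7.49% of all probes, of which 4.35% were higher. The median change was 0.23 over the list and -0.05 over all probes. After AS30 at 3 h, 1 of 64 rose, 1.56% beside 2.52% of all probes and 1.5% higher. After AS30 at 22 h, 4 of 62 rose and 1 fell, 8.06% beside 3.58% of all probes and 2.54% higher. No gene of the list passed limma's test of the difference between SM30 and AS30 (9 of 64 at an unadjusted p under 0.05, beside 4176 of 28595 of all probes) or between the 2 recovery times (15 of 62, beside 4735 of 28086).

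By role, the genes that rose after SM30 were a co-receptor, inhibitors, transcription factors and target genes. Of 3 tested co-receptors, LY96, the MD-2 partner of TLR4, passed (limma adjusted p = 0.023). Its controls were not well above background, so that it was at least 1.13-fold higher. None of 5 receptors, 9 adaptors and 17 kinases passed limma's test, and 1, 3 and 2 of them had an unadjusted p under 0.05, beside 7207 of 28664 of all probes.

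Of 8 inhibitors, TNFAIP3 rose by 1.71 and its partner TNIP1 by 1.14 (log2, limma adjusted p = 0.033 and 0.0051), and the second probes of both gave 1.72 and 1.03. Of 11 transcription factors, NFKB1 rose by 0.72 and RELB by 0.73, both subunits of NF-kB, and JUN, a subunit of AP-1, by 1.35 (adjusted p = 0.046, 0.032 and 0.0047).

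Of 11 target genes tested, 5 rose after SM30. CCL20 had the largest change of the list, 3.25 (limma adjusted p = 0.0014), followed by ICAM1, an adhesion molecule, at 2.39 (adjusted p = 0.021) and PTGS2, which makes prostaglandins, at 2.02 (adjusted p = 0.033). The chemokine CXCL2 rose by 1.35 (adjusted p = 0.038), and its second probe gave 1.26 without passing (adjusted p = 0.066). The cytokine TNF gave 1.81 (adjusted p = 0.0051) with its controls well above background on 1 of 3 arrays, and its second probe gave 0.06, so the probes disagreed.

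After AS30 at 3 h, CCL20 was the gene that rose, by 1.95 (limma adjusted p = 0.016). At 22 h the adaptor SARM1 rose by 1.01 and the Pellino ligases PELI2 by 0.97 and PELI3 by 0.70, which act on IRAK proteins in the case of the Pellinos (adjusted p = 0.018, 0.020 and 0.043). IL1R2, the decoy receptor of interleukin-1, fell by 0.64 (adjusted p = 0.045). LY96 passed at 22 h on 1 ratio, with no control array well above background, and no size is given.

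Of the 79 list genes, 67 had a promoter window in the RefSeq table, and 28.4% of their 109 windows held the NF-kB motif, beside 9.96% of all windows. Some genes have several windows, which are not independent of each other. The list was chosen to hold NF-kB subunits, inhibitors and target genes of the route, so this share is a description of the choice of genes only.

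**Figure D5:**
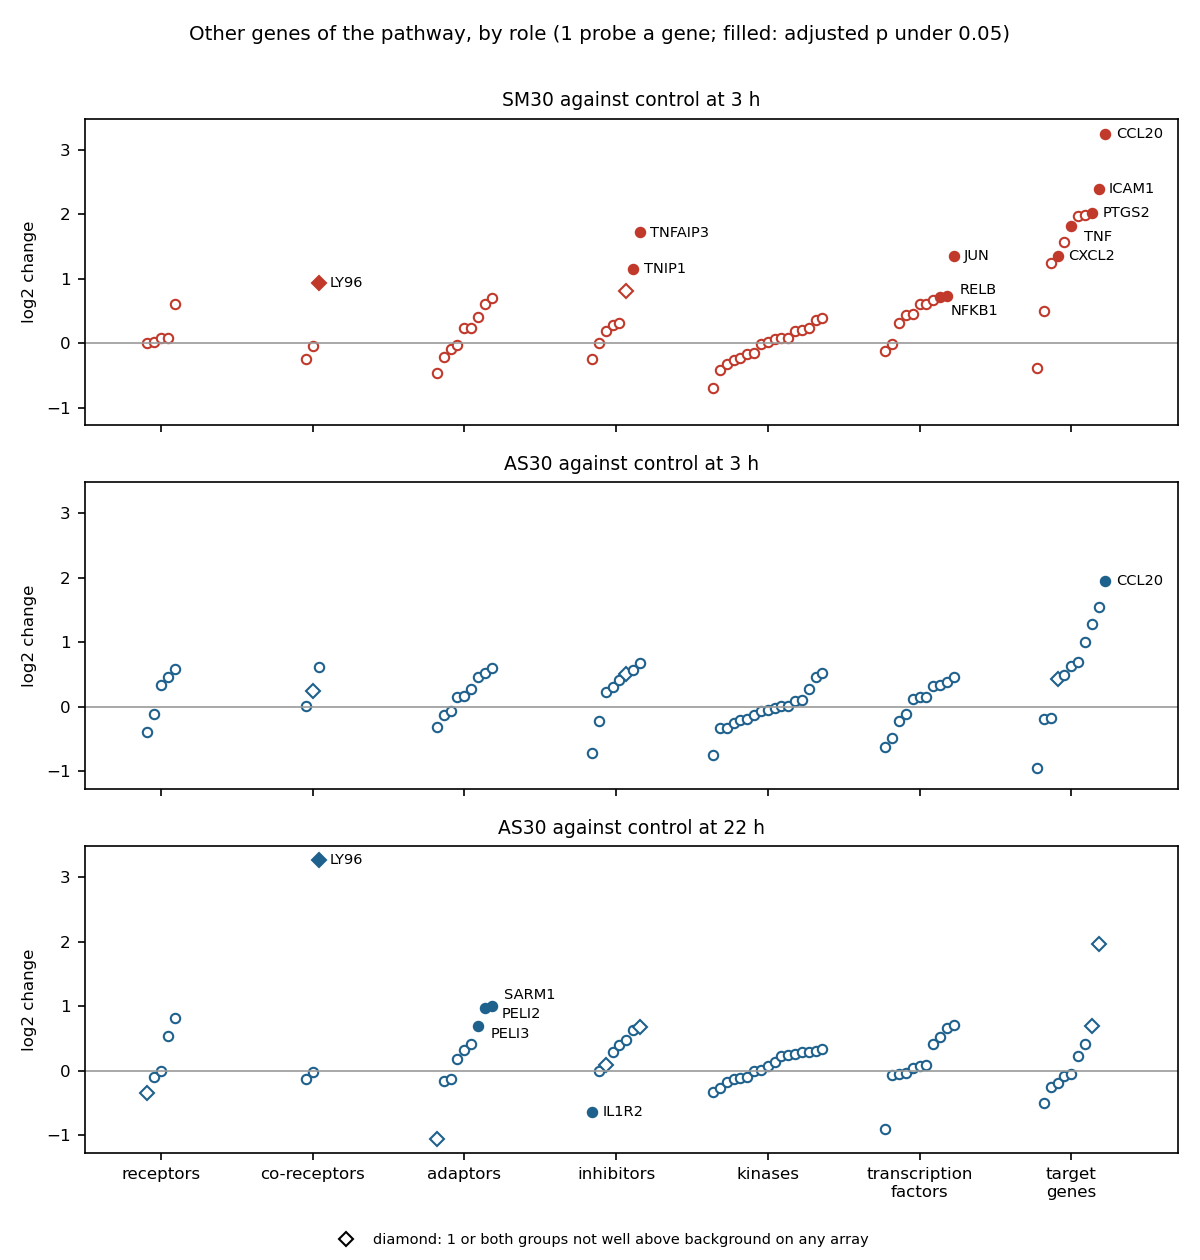
Log2 change (vertical axes) of the tested genes of the pathway list after each exposure, 1 probe a gene, grouped by role along the horizontal axis. Filled symbols had a limma adjusted p under 0.05 and diamonds mark genes for which no array of a group was well above background. After SM30 the filled symbols lie among co-receptors, inhibitors, transcription factors and target genes, with CCL20 at 3.25.

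The patterns of IRAK1, MYD88 and TRAF6 were set against 17976 probes well above background on all arrays, as Pearson correlations of log2 signal over the 18 arrays. The nearest genes to IRAK1 were STK25 (r = 0.976), CCNY (0.968) and the transcript THC2586367 (0.967). Those nearest to the MYD88 probe A_23_P362659 included WIPI2 (0.983) and MGAT4B (0.974), and those to the other MYD88 probe included MAF1 (0.944) and GP9 (0.940). For TRAF6 they were IL22RA1 (0.965), AMOTL1 (0.965) and GAREM1 (0.964). The arrays share slides and fall into the SM30 and AS30 sets, so the correlations are a description only.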

How the data were processed

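Gene expression was measured in A549 cells with Agilent one-color arrays, 18 arrays in 6 groups of 3. The authors scanned the arrays with Agilent Feature Extraction 10.5.1.1, and the deposited scanner files hold intensity values for 45015 spots, with probe positions on hg18. The authors also deposited a table of normalized intensity values, used as an alternative. No column was set aside (0).

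Following the methods of the study, log2 intensity was quantile normalized over the 18 arrays, spots not flagged positive and significant were set to missing, replicate spots were averaged, and probes with over 33% missing values were removed. Leaving out outlier spots was added here. Same-letter log2 ratios of treated to control cells (9 ratios, 3 a class) were fitted in limma 3.58.1 (R 4.3.3, statmod 1.5.0, the data.table package, version 1.17.8). The study's methods used a multiclass test of the same ratios. Controls were compared in an 18-array fit. P-values were adjusted by Benjamini-Hochberg over all probes at 0.05. In the ratio fit the spread was pooled over the 3 classes, with at most 6 residual degrees of freedom, and drawn toward that of all probes. Where a class had 1 ratio, its spread came from the other classes and probes. The control fit pooled the spread of the 6 groups. All values describe cultures of 1 line. The fit was tested on simulated data with known changes. Those data held no slide effect and no pairing, and changes were set only in probes without missing values. Partly masked probes such as IRAK2 and TLR2 were therefore not covered. The study's methods set each treated array against its corresponding control, taken here as that of the same letter. Deviations of same-letter arrays correlated from -0.09 to 0.45, and 3 of 9 pairs were above 0.1, so the data do not show the pairing. No 2 arrays held identical values. With arrays, their number limits the precision.

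The members and gene lists were chosen with earlier results of these data known. The genes named are all members, their 3 nearest genes where a member was detected on all arrays (some of which are not reported here), and the list genes that passed; second probes of the latter and CD14 were added after values were seen. A bound takes, for each array of the dim group, the higher of the lowest detected signal and the probe's own. It compares group means and leaves out the spread of the arrays, so it is no lower limit of an interval. Promoter windows came from RefSeq (GRCh38.p14), whose coordinates are not those of the arrays; annotation of hg18 was not used here. Alternatives were the scaling, background correction, masking of dim spots, filters, outlier spots, the deposited table, the pairing, slide as a block, the mean of the controls, and leaving out each replicate.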

Additional observations from a re-analysis of the deposited data

How the results depend on the processing

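Of 670 member values recomputed under the planned settings other than leave-one-out, 641 kept their direction and side of the threshold, 14 lost and 15 gained a call, and 0 reversed; of 624 leave-one-out values, 607, 15 and 2, and 0 reversed. Member probes called after SM30 (2) were 0 with only probes well above background on all 18 arrays, where IRAK2 and TLR2 were not tested, 0 with slide as a fixed block, and 1 to 2 leaving out a replicate. After AS30 at 3 h (1) they were 0 with dim spots kept, with only probes well above background, without the replicate block and with slide fixed, 4 over the mean of the controls, and 0 to 1 leaving out a replicate. At 22 h (1) they were 0 with normexp, with only probes well above background, without the replicate block and with slide fixed or random, 2 with outlier spots kept and 2 with the deposited table (the second with outlier spots kept being TLR4 A_23_P60306, not well above background on any array), 3 over the mean of the controls, and 0 to 1 leaving out a replicate. Over the mean of the controls, which leaves out the controls' own spread, the differences between responses gave 3 and 1 in place of 0. The AS30 controls at 22 h against 3 h (0) gave 1 with dim spots kept and 0 to 1 leaving out a replicate, the SM30 against AS30 controls (4) gave 2 with normexp and 2 to 4 leaving out a replicate. Unpaired, with no replicate block, IRAK2 was 1.90 (adjusted p = 0.012) after SM30. In the setting added after seeing the data (18 arrays, dim spots kept, no filter, no replicate block), AS30 at 3 h gave 0 and the AS30 controls gave 1. Over all probes, calls were 2146 (289 to 9459 over the alternatives), 720 (52 to 10002) and 1008 (2 to 8849) for the 3 exposures, 4 (0 to 5462) and 8 (0 to 5962) for the differences, and 366 (189 to 1557) and 7668 (5249 to 9700) for the controls; with 75th-percentile scaling the AS30 controls went from 142 higher and 224 lower to 94 and 245, the SM30 against AS30 controls from 4479 and 3189 to 3749 and 3831, and AS30 at 3 h from 430 and 290 to 345 and 341. Without a stated cause above, the cause was not tested. Dim signal limits IRAK3, TLR2, TLR3 and TLR4, and IRAK2 in controls.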
